A study of Mus musculus with 24 samples.

Results

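The genes described here are the ligands, receptors and intracellular Smad proteins of the transforming growth factor β (TGF-β) pathway, with 1 gene named for its induction by TGF-β. They were chosen by name, with earlier results of these data known. Of the 20659 genes named on the array, the 10 members are Tgfb1, Tgfb2, Tgfb3, Tgfbr1, Tgfbr2, Smad2, Smad3, Smad4, Smad7 and Tgfbi. They were measured by 15 probes of the 39429 on the array, and every one of these probes is shown. Tgfb2, Tgfbr1, Tgfbr2, Smad3 and Smad4 had a pair of probes each, and probe 1 is the one with the higher mean over the arrays. All 15 probes were well above background on at least 13 of the 22 complete arrays, and 13 of them on all 22.

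CD11b+ cells, which are mainly neutrophils, monocytes and macrophages, had been isolated from the spleen or the bone marrow of male mice, and their RNA was hybridised to 1-colour Agilent mouse arrays. The mice were wild type (WT), HDC-KO, which lack histidine decarboxylase, the enzyme that makes histamine, or STAT6-KO, which lack the transcription factor STAT6. Each genotype was sampled as control mice and 1 week, 2 weeks or 4 weeks after myocardial infarction (MI). Each of the 24 combinations was 1 array of cells pooled from 5 mice, and 2 arrays whose tables held only a small part of the spots (the spleen control of HDC-KO, and STAT6-KO at 1 week in bone marrow) were not used. Per the methods the mice were of Balb/C background, and 10 weeks old. Since no condition had a second array, p-values below take the spread between the pools of different conditions as error. Arrays with the same scan time in the file headers were taken as 1 slide. Each slide held 1 genotype in 1 tissue, and each position on a slide held 1 time point, so a genotype within a tissue cannot be told apart from its slide, nor a time point from its position.

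TGF-β is secreted as a latent complex and must be released before it binds its receptors. The type II receptor, encoded by Tgfbr2, binds the ligand and then phosphorylates the type I receptor, encoded by Tgfbr1, which in turn phosphorylates Smad2 and Smad3. These join Smad4, enter the nucleus and regulate genes, among them Smad7, whose product inhibits the receptor. Myeloid cells are a source of TGF-β in injured tissue, where the pathway is known for restraining inflammation and for promoting fibrosis.

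Upstream sequences of members are shown because the ligands differed most in pattern, and because 1 group of mice lacks a transcription factor with a known binding motif. RefSeq promoter entries (assembly GRCm38.p6) matched 6 of the 10 genes, and those printed are the 250 bases before the start of Tgfb1 (chr7:25686752-25687001, plus strand), Tgfb2 (chr1:186705990-186706239, minus strand) and Tgfbr2 (chr9:116175364-116175613, minus strand). Capitals mark the motif CAGAC or its reverse complement, to which Smad proteins can bind.
Tgfb1: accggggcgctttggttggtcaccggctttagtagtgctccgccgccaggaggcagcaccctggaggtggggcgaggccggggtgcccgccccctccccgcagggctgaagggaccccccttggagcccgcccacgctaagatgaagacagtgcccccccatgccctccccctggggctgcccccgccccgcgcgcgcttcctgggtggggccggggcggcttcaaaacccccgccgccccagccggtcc
Tgfb2: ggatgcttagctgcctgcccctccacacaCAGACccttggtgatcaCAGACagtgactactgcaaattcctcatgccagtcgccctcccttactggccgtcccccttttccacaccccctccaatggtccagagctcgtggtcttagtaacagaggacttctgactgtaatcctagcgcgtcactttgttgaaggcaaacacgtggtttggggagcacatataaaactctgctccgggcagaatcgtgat
Tgfbr2: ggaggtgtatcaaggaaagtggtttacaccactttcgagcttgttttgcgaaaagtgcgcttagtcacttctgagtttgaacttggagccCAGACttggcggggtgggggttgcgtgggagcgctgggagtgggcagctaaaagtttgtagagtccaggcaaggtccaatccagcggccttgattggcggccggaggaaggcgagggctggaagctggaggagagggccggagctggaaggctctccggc
In the full entries, which go on for 50 bases after the start, CAGAC occurred 2 times for Tgfb2, 2 times for Tgfbi, 1 time for Tgfbr2, 1 time in 1 of the 2 Tgfbr1 entries and 0 times for Tgfb1 and Smad3. It occurred in 49.6% of all 32851 entries, counted on both strands. On both strands, TTC and GAA with any 4 bases between (the spacing that STAT6 prefers, in 6.95% of all entries), the same with any 3 bases between (8.30%) and GTCTAGAC (0.213%) were found in 0 of the 7 entries of these genes, which says only that those letters are not in these windows. The GC content of the entry was 77.0% for Tgfb1, 59.0% for Tgfbr2 and 54.3% for Tgfb2, against a median of 52.7% over all entries.

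All levels below are log2 signals minus the 75th percentile of the array, so that 0 is the signal that 1 in 4 probes exceeded. On the complete arrays 70.4% to 79.8% of spots were well above background, with the lowest values on the WT 1 week arrays of spleen (70.4%) and bone marrow (71.3%). The same arrays had high medians over 6 interferon-induced genes (3.81 and 4.79), as had the STAT6-KO 4 weeks arrays (3.76 and 3.36), against -0.88 to 3.23 elsewhere. All 3 markers of the CD11b sort (Itgam, Itgb2, Ptprc) were well above background on every array. Hdc was at 1.67 to 2.78 in HDC-KO and at 4.32 to 5.51 in WT, without overlap, while Stat6 on its brightest probe was at 1.76 to 2.44 in STAT6-KO and at 2.38 to 3.70 in WT. The labels call all mice male, yet Xist, the RNA of the silenced X in female cells, passed background on 7 of 7 HDC-KO arrays (-3.31 to -2.05), on 6 of 7 from STAT6-KO (-6.07 to -3.51) and on 5 of 8 from WT (-7.31 to -5.42). Its other probe passed on 7 of 7, 2 of 7 and 0 of 8. The highest STAT6-KO values were on control arrays, of bone marrow for the first probe (-3.51) and of spleen for the other (-2.06). The part of these differences in the comparisons of genotype and of time after MI was not tested.

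Between spleen and bone marrow, over 10 pairs of the same genotype and time, 7 of 15 member probes passed a limma adjusted p of 0.05, with 3 higher and 4 lower in spleen, against 54.9% of all 33524 probes tested. Those 7 are 46.7% of the member probes, a share near the background. At 1 week after MI in spleen 2 of 15 passed, both lower than in control (background 7.81%), and at 2 weeks 1 of 15, also lower (2.01%). At 4 weeks 0 of 15 passed (0.0%). There 3 probes, of Tgfb2 and Tgfb3, had an unadjusted p under 0.05, against 2729 of all 32087 probes. In bone marrow 0 of 15 passed at 1 week (0.22%), 2 weeks (0.0%) or 4 weeks (0.0%), with 0, 0 and 3 at an unadjusted p under 0.05. For STAT6-KO against WT, 0 of 15 passed in spleen (1.96%) and 1 of 15 in bone marrow (4.34%), the latter lower. For HDC-KO against WT, 0 of 15 passed in spleen (2.63%) and 0 of 15 in bone marrow (0.424%). At an unadjusted p under 0.05 there were 5 and 0, against 7097 of all 32087 probes in spleen and 6883 of 32800 in bone marrow. The Student test and fold threshold that the study names gave 0 member probes in each of the 4 genotype comparisons. Here the test was unpaired, with all arrays of a genotype in a tissue as replicates, control and times after MI together. The times were not balanced where an array could not be used, and this is not the comparison of groups that the study reports.

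Tgfb1, the ligand most widely made by immune cells, was measured by 1 probe printed as 10 spots, whose standard deviation on 1 array had a median of 0.083. In WT spleen its level was -0.93 in control and -0.41, -1.11 and -1.52 at 1, 2 and 4 weeks after MI. HDC-KO spleen was at -0.37, -0.71 and -1.68 at the same weeks, and STAT6-KO spleen at -2.41 in control and then -1.07, -1.70 and -0.98. The STAT6-KO control array was the lowest of the 11 spleen arrays, and the WT and HDC-KO arrays at 1 week the highest. In bone marrow the WT levels were -0.70, -0.15, -0.73 and -0.03 in the same order. Those of HDC-KO were -0.82, -1.06, -0.39 and -0.30, and those of STAT6-KO -1.63 in control, -1.08 at 2 weeks and -0.74 at 4 weeks. All 3 STAT6-KO arrays of the bone marrow were below the WT array of the same time, with a difference of -0.77 (SE 0.23, limma adjusted p = 0.103). In spleen the STAT6-KO array was below the WT array in control and at 1 and 2 weeks and above it at 4 weeks, and the comparison did not pass the threshold.

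Spleen was below bone marrow for Tgfb1 in 9 of 10 pairs, by -0.50 (SE 0.19, limma adjusted p = 0.0393, exact sign-flip permutation p = 0.0332, two-sided), and the levels of the tissues overlapped. The exception was the HDC-KO 1 week pair, at 0.69. The call was lost when any of 7 pairs was left out (WT 1, 2 or 4 weeks, HDC-KO 2 or 4 weeks, STAT6-KO control or 2 weeks), and the change then ran from -0.53 to -0.39. Quantile normalization, median scaling and scaling to probes detected on all arrays also ended it (-0.49, -0.46 and -0.43), as did a fit without the pair block (-0.50, limma adjusted p = 0.0901) and 1 with the slide as a random block (limma adjusted p = 0.149).

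**Figure D1:**
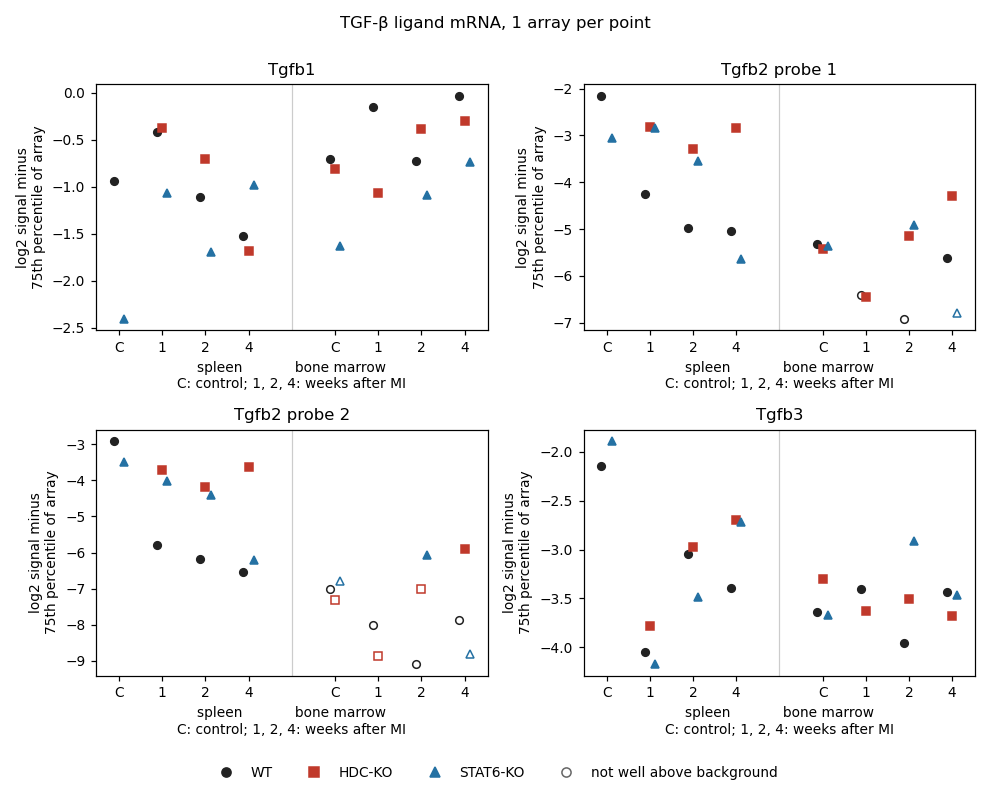
Levels of the 3 TGF-β ligands (y axis, log2 signal minus the 75th percentile of the array) in spleen and bone marrow by time after MI (x axis), with 1 point per array, coloured by genotype, and open points for arrays not well above background. Both Tgfb2 probes sit higher in spleen than in the paired bone marrow array in 10 of 10 pairs, and Tgfb3 is highest in the 2 spleen control arrays.

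Tgfb2, a ligand better known from development and from stromal and epithelial cells, had the largest difference between tissues of the 15 probes. Probe 2 was well above background on 11 of 11 spleen arrays and on 2 of 11 bone marrow arrays, and probe 1 on 11 of 11 and 8 of 11. On probe 1 the WT spleen levels were -2.15 in control and -4.25, -4.97 and -5.04 at 1, 2 and 4 weeks. In HDC-KO spleen they were -2.82, -3.29 and -2.84 after MI, and in STAT6-KO spleen -3.05 in control and -2.84, -3.54 and -5.64 after MI. The WT control was therefore the highest spleen array, and the STAT6-KO 4 weeks array the lowest. In bone marrow probe 1 lay at -5.31, -6.40, -6.93 and -5.61 in WT from control to 4 weeks. It lay at -5.42, -6.45, -5.14 and -4.29 in HDC-KO, and at -5.35, -4.92 and -6.79 in the 3 STAT6-KO arrays. The pair of probes moved together, with a Pearson r of 0.96 over the 22 arrays after each tissue's mean was subtracted.

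The difference between spleen and bone marrow was 1.96 (SE 0.26, limma adjusted p = 6.16e-05) on Tgfb2 probe 1, or 3.89-fold, and 2.84 (SE 0.32, limma adjusted p = 1.63e-05) on probe 2. Both were higher in spleen in 10 of 10 pairs, with an exact sign-flip permutation p of 0.00195, the smallest that 10 pairs can give. That test takes the pairs as independent, although pairs of a genotype shared their slides. On probe 1 the pairs ran from 0.56 in WT at 4 weeks to 3.63 in HDC-KO at 1 week, so a few spleen and bone marrow arrays of different pairs overlapped. The size depended on how low signals were treated. With signals floored at the lowest one well above background on each array, the differences were 1.86 and 1.70, and with normexp background correction 0.86 and 0.75, each still past the threshold.

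After MI, Tgfb2 in WT spleen was lower than its own control by -2.10, -2.83 and -2.90 on probe 1 at 1, 2 and 4 weeks, and by -2.90, -3.27 and -3.62 on probe 2, each from 1 array against 1 array. In STAT6-KO spleen the same differences were 0.21, -0.49 and -2.59 on probe 1, and -0.52, -0.92 and -2.73 on probe 2, so the probes differed in direction at 1 week. Over the genotypes the changes at 1, 2 and 4 weeks were -1.87, -2.29 and -2.82 (SE 0.61 each) on probe 2, and none passed the threshold (limma adjusted p = 0.0955, 0.0863 and 0.394). Without the STAT6-KO arrays the changes at 1 week were -2.27 and -3.01, with the WT control as the only control array. The spleen control group held only WT and STAT6-KO, since the HDC-KO control array could not be used. Fits of time in spleen without WT or without STAT6-KO therefore held 1 control array.

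HDC-KO spleen lay above WT spleen for Tgfb2 at each of the 3 times after MI. The differences were 1.43, 1.68 and 2.20 on probe 1 at 1, 2 and 4 weeks, and 2.10, 1.98 and 2.89 on probe 2, and the groups did not overlap at these times. In the fit the changes were 1.56 (SE 0.54, limma adjusted p = 0.148) and 2.09 (SE 0.51, limma adjusted p = 0.0733), neither past the threshold, and an exact sign-flip permutation test of 3 pairs cannot go below 0.25. With the 2 genotypes fitted alone both probes passed, at 1.77 and 2.32 (limma adjusted p = 0.0136 and 0.0113). Without the control arrays probe 2 also passed, at 2.32 (limma adjusted p = 0.0372). In this comparison the alternatives gave 250 values for the 15 member probes, and only these 3 passed. In bone marrow the change was 0.74 (SE 0.55) on probe 1, and the difference of the HDC-KO effects, spleen minus bone marrow, was 0.35 (SE 0.66, limma adjusted p = 0.879) and 0.77 (SE 0.79, limma adjusted p = 0.739), so the tissues were not shown to differ. For that difference 0 of 15 member probes passed, against a background of 0.937%. At an unadjusted p under 0.05 there was 1, against 4751 of all 33524 probes.

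Tgfb3, the remaining ligand, was lower on the spleen arrays after MI than on the 2 control arrays, past the threshold at 1 and 2 weeks only. It was also printed as 10 spots, with a median standard deviation within an array of 0.073. Its level was -2.14 in WT spleen control and -1.89 in STAT6-KO spleen control. At 1 week it was -4.05 in WT, -3.78 in HDC-KO and -4.18 in STAT6-KO, at 2 weeks -3.05, -2.97 and -3.49, and at 4 weeks -3.40, -2.69 and -2.71. Both controls lay above all 9 spleen arrays after MI, and the 3 arrays at 1 week below the other 8. In bone marrow the 11 arrays lay between -3.95 and -2.91, and the 3 controls, at -3.64, -3.30 and -3.67, were within that range.

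The change of Tgfb3 in spleen was -2.10 at 1 week (SE 0.25, limma adjusted p = 0.00938), and -1.26 at 2 weeks (SE 0.25, limma adjusted p = 0.0484). At 4 weeks it was -1.03 (SE 0.25, limma adjusted p = 0.429) in a comparison in which 0 probes of any gene passed. The median over all probes was -0.17, -0.14 and 0.08 at these times. In bone marrow Tgfb3 changed by 0.10, 0.08 and 0.01 at 1, 2 and 4 weeks. The difference of these effects, spleen minus bone marrow, was -2.33 at 1 week (SE 0.56, unadjusted p = 0.00421 and limma adjusted p = 0.216), -1.52 at 2 weeks and -1.21 at 4 weeks, none past the threshold. For these differences between tissues 0 of 15 member probes passed at 1, 2 and 4 weeks, and the background was 0.0%, 0.0% and 0.0% of all probes. At an unadjusted p under 0.05 there were 3 member probes each, against 5194, 4156 and 1937 of all 33524 probes.

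The 1 week call of Tgfb3 was lost in some smaller fits in which its change was no smaller, and with normexp background correction. Without the WT spleen 1 week array its change was -2.19 (limma adjusted p = 0.0575), and 0 probes of any gene were called. Leaving out all WT arrays gave -2.25 (limma adjusted p = 0.317), and normexp background correction gave -0.89 (limma adjusted p = 0.740). At 2 weeks the call was lost without any 1 of the genotypes, with changes of -1.50 without WT, -1.25 without HDC-KO and -1.04 without STAT6-KO. In these bulk samples fewer cells of a type and less RNA per cell cannot be told apart. T cell markers moved in the same comparison, where 4 of 5 (from Cd3e, Cd3d, Cd3g, Lck and Cd8a) were lower at 1 week in spleen. Their summed level, in units of the 75th percentile, was 11.6 to 15.6 in the spleen controls, 6.56 to 9.03 at 1 week and 16.8 to 31.3 at 2 weeks. All 5 were well above background on every array. At 1 week 1 of 7 stromal markers was also lower (summed level 0.603 to 0.857, against 0.916 to 1.45 in control), as was 1 of 5 dendritic cell markers (43.0 to 61.0 against 56.0 to 67.8). At 2 weeks 1 of 5 B cell markers was higher (59.1 to 61.9 against 21.1 to 40.8 in control) and 1 of 5 dendritic cell markers lower (36.8 to 58.6). The part of these markers in the results was not tested.

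Of the receptors, Tgfbr1 gave unlike results on its pair of probes. Probe 1 lay between 2.34 and 3.20 over all 22 arrays, and changed by -0.05, -0.09 and -0.06 in spleen at 1, 2 and 4 weeks (SE 0.21 each). Probe 2 in spleen was at -1.62 in WT control and -2.88 in STAT6-KO control. At 1 week it was at -3.92, -3.27 and -4.00 in WT, HDC-KO and STAT6-KO, at 2 weeks at -4.02, -2.78 and -4.46, and at 4 weeks at -2.18, -2.38 and -2.36. The 1 week arrays were below both controls, whereas the 4 weeks arrays lay between the controls. Its change was -1.71 at 1 week (SE 0.40, limma adjusted p = 0.0417), -1.73 at 2 weeks (SE 0.40, limma adjusted p = 0.0650) and -0.29 at 4 weeks (SE 0.40). The 1 week call was lost with quantile normalization, median scaling, normexp (-0.67) or the mean over the probes of the gene (-0.88, limma adjusted p = 0.0870). It was also lost without the WT 1 week array (-1.54, limma adjusted p = 0.158), without all WT arrays (-1.16), with no filter on dim probes (limma adjusted p = 0.0543) and without the HDC-KO arrays (-1.71, limma adjusted p = 0.0721). The probes correlated with an r of 0.26 over 22 arrays after each tissue's mean was subtracted, and neither differed between the tissues past the threshold (0.15 with SE 0.10, and 0.06 with SE 0.35).

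Tgfbr2, the ligand-binding receptor, was higher in spleen on probe 1 and lower in STAT6-KO bone marrow on probe 2. On probe 1 the spleen arrays ran from 1.80 to 2.64 (median 2.46) and the bone marrow arrays from 1.50 to 2.37 (median 1.91). The spleen array was higher in 9 of 10 pairs, by 0.42 (SE 0.14, limma adjusted p = 0.0255, exact sign-flip permutation p = 0.0195). The exception was the WT 1 week pair at -0.57. The call was lost without the HDC-KO 2 weeks pair or any 1 of the 3 STAT6-KO pairs (0.36 to 0.39) with the mean over the probes of the gene (0.26) and without all HDC-KO pairs (0.34), and probe 2 differed by 0.11 (SE 0.20).

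In bone marrow Tgfbr2 probe 2 was at -1.84, -1.60 and -1.16 in STAT6-KO in control and at 2 and 4 weeks. The WT arrays of the same times were at -1.14, -0.95 and -0.05, so each was above its STAT6-KO counterpart, and all 3 were above the highest STAT6-KO array. The WT 1 week array, with no STAT6-KO counterpart, was at -0.55. The change was -0.89 (SE 0.18, limma adjusted p = 0.0424), and on probe 1 it was -0.41 (SE 0.18, limma adjusted p = 0.222). The call on probe 2 was lost when any 1 time point was left out (-1.01 to -0.76), when the 2 genotypes were fitted alone (-0.82, limma adjusted p = 0.177) and over the mean of the probes (-0.65, limma adjusted p = 0.0697). In spleen STAT6-KO exceeded WT by 0.42 on probe 1, in 4 of 4 pairs, and by 0.25 on probe 2, neither past the threshold. The difference of the STAT6-KO effects, spleen minus bone marrow, was 0.81 (SE 0.25, limma adjusted p = 0.205) and 1.20 (SE 0.34, limma adjusted p = 0.174). Without the pair block probe 2 passed, at 1.19 (limma adjusted p = 0.0471). For that difference 0 of 15 member probes passed, against a background of 0.307%. At an unadjusted p under 0.05 there were 2, both of them for Tgfbr2, against 4404 of all 33524 probes.

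In each genotype probe 2 of Tgfbr2 had its highest bone marrow level at 4 weeks. The 4 weeks arrays stood above their own controls by 1.09 for WT, 1.11 for HDC-KO and 0.67 for STAT6-KO. The change of 0.96 (SE 0.19, limma adjusted p = 0.0808) missed the threshold, and it passed when the test was limited to probes well above background on every array (limma adjusted p = 0.0431). Probe 1 changed by -0.05 (SE 0.18) in the same comparison.

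**Figure D2:**
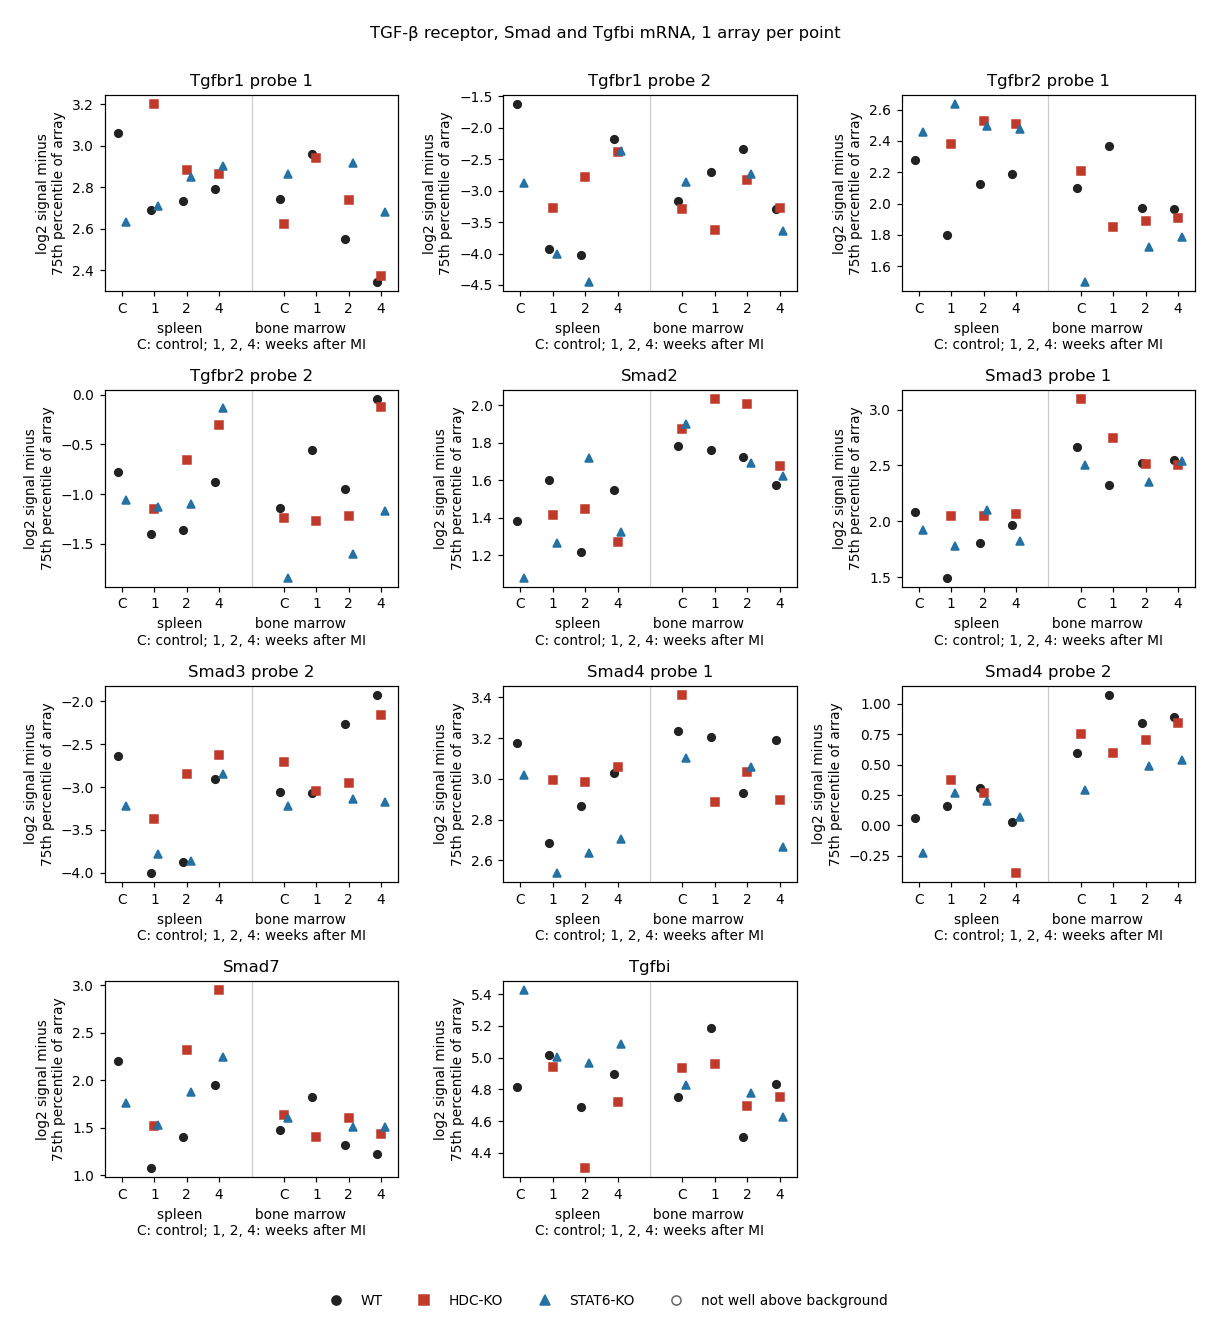
Levels of the receptor, Smad and Tgfbi probes (y axis, log2 signal minus the 75th percentile of the array, with its own range in each panel) by tissue and time after MI (x axis), with 1 point per array, coloured by genotype. Smad3 probe 1 does not overlap between spleen and bone marrow over the 10 pairs, while Tgfbi varies little, between 4.30 and 5.43.

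The receptor-activated Smads and Smad4 passed the threshold, lower in spleen, on 3 of their 5 probes, and the remaining estimates were also negative. Of all 33524 probes tested, 10934 passed lower in spleen. Smad3 probe 1 lay between 1.50 and 2.10 on the 11 spleen arrays and between 2.33 and 3.09 on the 11 bone marrow arrays, without overlap. The difference was -0.59 (SE 0.09, limma adjusted p = 0.000128), in 10 of 10 pairs (exact sign-flip permutation p = 0.00195). It kept its call under every alternative run, with values from -0.62 to -0.48. Smad3 probe 2 differed by -0.42 (SE 0.19, limma adjusted p = 0.0868). Smad2, the other receptor-activated Smad, ran from 1.08 to 1.72 in spleen and from 1.57 to 2.03 in bone marrow. It was lower in spleen in 9 of 10 pairs, by -0.38 (SE 0.10, limma adjusted p = 0.00897). The call was lost with median scaling (-0.34) and without the HDC-KO pairs (-0.31).

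Smad4, the shared partner, was lower in spleen by -0.60 on probe 2 (SE 0.11, limma adjusted p = 0.000746), in 10 of 10 pairs, and by -0.11 on probe 1 (SE 0.10, limma adjusted p = 0.373). Probe 2 ran from -0.39 to 0.37 in spleen and from 0.29 to 1.07 in bone marrow. Its call held under every alternative run that included it, with values from -0.64 to -0.35. The 2 probes had an r of -0.10 over the arrays after each tissue's mean was subtracted, so their patterns were unlike. The median over all probes between the tissues was -0.17, and it was -0.06 with quantile normalization, -0.13 with median scaling and -0.10 with scaling to probes detected on all arrays. The directions of the 7 member probes called were the same under each of these scalings.

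Smad7, the inhibitory Smad, had its widest spread in spleen. In WT spleen it was at 2.20 in control and at 1.07, 1.40 and 1.96 at 1, 2 and 4 weeks. In HDC-KO spleen it was at 1.52, 2.32 and 2.95 after MI, and in STAT6-KO spleen at 1.76 in control and 1.53, 1.87 and 2.25 after MI. The 3 arrays at 1 week were lower than the control arrays, and the HDC-KO 4 weeks array was the highest of all. In bone marrow the 11 arrays lay between 1.22 and 1.82. Spleen was higher in 9 of 10 pairs, by 0.44 (SE 0.18, limma adjusted p = 0.0571), which missed the threshold, and passed it with quantile normalization (0.53), median scaling (0.48), scaling to probes detected on all arrays (0.51) and normexp (0.48). At 1 week in spleen it changed by -0.80 (SE 0.26, limma adjusted p = 0.0959), and in HDC-KO against WT spleen by 0.68 (SE 0.22, limma adjusted p = 0.127), in 3 of 3 pairs.

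Tgfbi, which encodes a matrix protein secreted after TGF-β stimulation and is abundant in monocytes, was at 4.30 to 5.43 over the 22 arrays. No comparison moved it past the threshold. Spleen and bone marrow differed by 0.09 (SE 0.11), and the changes in spleen at 1, 2 and 4 weeks were -0.04, -0.37 and -0.13 (SE 0.20 each). STAT6-KO differed from WT by 0.27 (SE 0.15, limma adjusted p = 0.328) in spleen and by 0.01 (SE 0.15) in bone marrow.

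**Figure D3:**
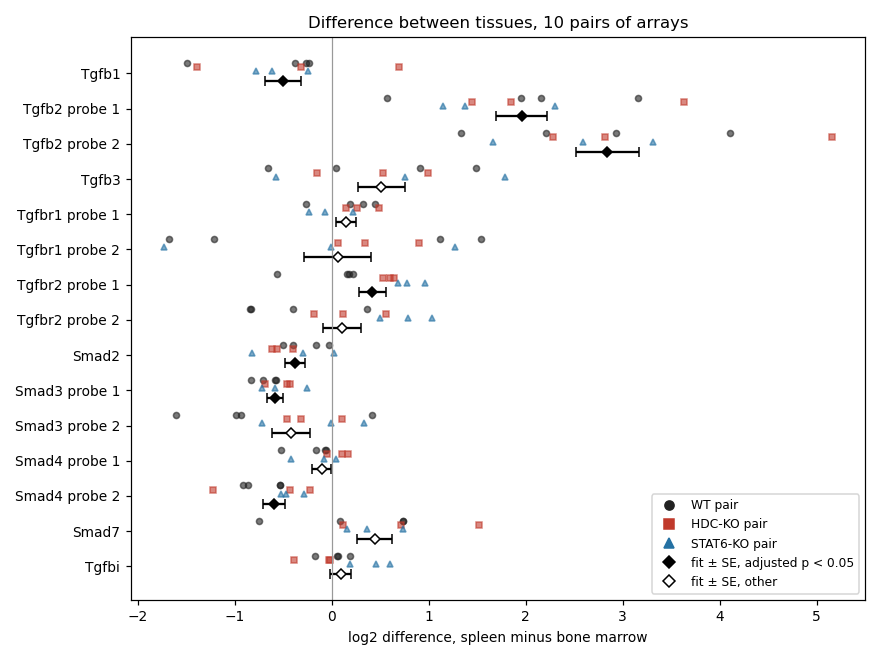
Differences between spleen and bone marrow (x axis, log2) for the 15 member probes (y axis), with 1 coloured point per pair of arrays and a diamond for the limma fit with its standard error, filled where the adjusted p was under 0.05. Tgfb2 stands at 1.96 and 2.84 on its probes, and the other called probes lie between -0.60 and 0.42.

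The median over the 15 member probes was 0.09 between the tissues, against -0.17 over all probes. At 1 and 2 weeks in spleen the member medians were -0.41 and -0.31, with 3 of 15 probes above 0 at each, against -0.17 and -0.14 over all probes and 36.6% and 39.0% of them above 0. The all-probe median at 1 week was 0.01 with quantile normalization, 0.13 with median scaling and 0.31 with normexp, and of all calls at that time 513 of 2507 were higher than control, against 1702 of 2924 with median scaling and 608 of 1519 with quantile normalization. In WT alone, 1 array against its control, the member median in spleen was -0.58 at 1 week, -0.33 at 2 weeks and -0.25 at 4 weeks, against -0.07, -0.06 and 0.08 over all probes well above background on both arrays. In WT bone marrow it was 0.27, -0.13 and -0.08, against 0.21, 0.02 and 0.15. In HDC-KO against WT spleen the member median was 0.38 with 11 of 15 above 0, against 0.07 over all probes.

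**Figure D4:**
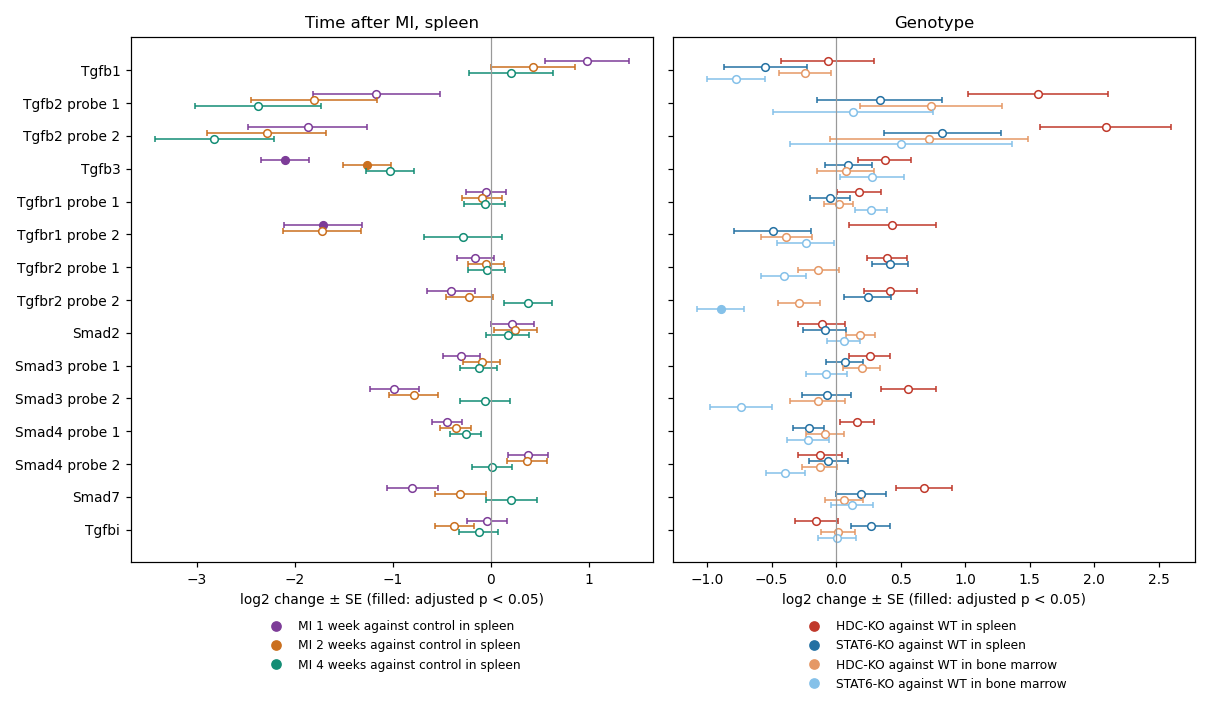
Changes of the 15 member probes (y axis) as log2 values with standard errors (x axis), at 1, 2 and 4 weeks after MI against control in spleen (left) and for each knockout against WT in spleen and bone marrow (right), filled where the limma adjusted p was under 0.05. The filled points are Tgfb3 at 1 and 2 weeks, Tgfbr1 probe 2 at 1 week, and Tgfbr2 probe 2 in STAT6-KO bone marrow.

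Marker genes of other cells differed between the tissues together with these members. All 5 B cell markers were higher in spleen, with summed levels of 18.4 to 71.8 against 1.63 to 26.1 in bone marrow. Of the T cell markers 4 of 5 were higher and 1 lower. Their median change was 3.08, yet their summed levels overlapped (6.56 to 31.3 against 12.03 to 22.1). Of the monocyte and macrophage markers 5 of 6 were higher (summed level 70.0 to 128.8 against 40.5 to 65.5). Of the neutrophil markers 5 of 6 were lower in spleen (128.9 to 291.4 against 294.0 to 514.2), as were 5 of 6 platelet markers (2.81 to 8.54 against 8.91 to 40.8) and 5 of 7 stromal markers (0.493 to 3.32 against 3.13 to 20.01). Of the dendritic cell markers 3 of 5 were higher (36.8 to 81.3 against 36.4 to 78.8) and 0 were lower, and of the erythroid markers 1 of 5 was higher and 0 lower. Their part in the differences of the members was not tested. In STAT6-KO against WT bone marrow 1 of 5 B cell markers was lower and 1 of 5 T cell markers higher, with T cell sums of 12.03 to 12.71 in STAT6-KO and 14.8 to 22.1 in WT.

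The rest of the pathway was taken from 4 lists, with 1 probe per gene. Their counts stand against the shares of all probes called in each comparison, which were 54.9% between the tissues, 7.81% and 2.01% at 1 and 2 weeks in spleen, 0.22% at 1 week in bone marrow, 2.63% for HDC-KO in spleen, and 4.34% and 0.424% for STAT6-KO and HDC-KO in bone marrow. Of 12 tested genes for the latent complex and its activation, 1 was higher and 7 were lower in spleen. The lowest were Mmp9, a gelatinase of neutrophils that can release TGF-β, at -2.57 (SE 0.19), Thbs1, which encodes the activator thrombospondin 1, at -2.29 (SE 0.22), and Lrrc32, whose product GARP holds latent TGF-β on the cell surface, at -1.50 (SE 0.18). Itgav, an integrin subunit that binds the latent complex, was higher by 0.40 (SE 0.15). After MI 0 of 11 passed in spleen. In bone marrow at 1 week 1 of 13 passed, Ltbp1, a latent TGF-β binding protein, at -2.01 (SE 0.23, limma adjusted p = 0.0354), and Ltbp4 passed in STAT6-KO bone marrow, at 0.95 (SE 0.21, limma adjusted p = 0.0498). The Ltbp1 call was lost without WT (-2.19, limma adjusted p = 0.286), without HDC-KO (-1.90, limma adjusted p = 0.372), without the WT 1 week array (-2.06) and with normexp (-1.18). In that comparison 2 of 6 platelet markers and 1 of 5 B cell markers were also lower, with list medians of -1.51 and -2.36, and their part in the result was not tested. The Ltbp4 call was lost without control, 2 weeks or 4 weeks (0.80 to 1.01).

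Of 9 other receptors of the superfamily, 4 were higher and 3 lower in spleen. Acvr1 (1.54, SE 0.15), Tgfbr3 (1.36, SE 0.19), which encodes the co-receptor betaglycan that presents TGF-β2, and Acvrl1 (1.28, SE 0.13) were the highest. Bmpr1a (-2.14, SE 0.19), the co-receptor gene Eng (-0.96, SE 0.10) and Bmpr2 (-0.94, SE 0.12) were the lowest. Tgfbr3 fell at 1 week in spleen by 1.97 on the log2 scale (SE 0.32, limma adjusted p = 0.0162), and so did the activin receptor gene Acvr1b by 1.24 (SE 0.25, limma adjusted p = 0.0298). Tgfbr3 was also higher in HDC-KO than in WT spleen, by 1.45 (SE 0.27, limma adjusted p = 0.0378), a call lost without the arrays of 1 week (1.08), 2 weeks (1.58) or 4 weeks (1.61), and with normexp (1.19). The 1 week calls of Tgfbr3 and Acvr1b were lost without WT (-1.41 and -1.38), without HDC-KO (-2.12 and -1.22), without the WT spleen 1 week array (-1.51 and -1.43) and with normexp (-1.22 and -0.03), and that of Acvr1b also without STAT6-KO (-1.13). In the other comparisons of time and genotype 0 of 9 passed.

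Of 15 other Smads and regulators, 5 were higher and 4 lower in spleen. Zfyve9 (1.22, SE 0.21), whose product SARA brings Smad2 to the receptor, and the corepressor gene Tgif1 (1.08, SE 0.13) led the former, and the ubiquitin ligase gene Smurf2 (-1.19, SE 0.18) and the corepressor gene Ski (-0.99, SE 0.22) the latter. At 1 week in spleen 3 were lower, namely Pmepa1, a TGF-β target that restrains the pathway, at -1.82 (SE 0.36), Smurf1 at -1.55 (SE 0.37) and Smad1, which serves BMP signalling, at -1.31 (SE 0.25). Smad1 was also lower at 2 weeks, at -1.34 (SE 0.25, limma adjusted p = 0.0432). Pmepa1 was higher in HDC-KO than in WT spleen, at 1.56 (SE 0.30, limma adjusted p = 0.0424). The 1 week calls of Pmepa1, Smurf1 and Smad1 were lost without WT (-1.83, -1.78 and -1.12), without HDC-KO (-1.55, -1.42 and -1.14), without the WT spleen 1 week array (-1.99, -1.82 and -1.31) and with normexp (-0.01, -0.69 and -0.66), and that of Smurf1 also without STAT6-KO (-1.45). The 2 weeks call of Smad1 was lost without WT, HDC-KO or STAT6-KO (-1.10, -1.44 and -1.47), without the WT 1 week array (-1.34) and without the STAT6-KO 4 weeks array (-1.33). The HDC-KO call of Pmepa1 was lost without 1 week (1.94), 2 weeks (1.39) or 4 weeks (1.31), and was 0.71 with normexp.

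Of 11 known target genes, which include Pmepa1 and Skil of the list before, 6 were higher and 4 lower in spleen. The cell cycle inhibitor Cdkn2b (1.71, SE 0.18) and the fractalkine receptor Cx3cr1 (1.41, SE 0.15) were the highest. The matrix gene Ccn2 (-1.33, SE 0.41) was the lowest, followed by Id3 (-0.66, SE 0.22) and Id1 (-0.65, SE 0.18), inhibitors of basic helix-loop-helix factors that also answer to BMP. In STAT6-KO bone marrow Id1 was higher by 1.06 (SE 0.14, limma adjusted p = 0.0106) and Id3 by 0.97 (SE 0.21, limma adjusted p = 0.0460), whereas Cdkn1a was lower by -1.04 (SE 0.22, limma adjusted p = 0.0439). Id1 was higher in HDC-KO bone marrow too, by 0.95 (SE 0.13, limma adjusted p = 0.0382). Both genotypes were compared with the same WT arrays. In STAT6-KO spleen Id3 went the other way, by -0.62 (SE 0.13, limma adjusted p = 0.0565), which missed the threshold. The difference of the STAT6-KO effects on Id3, spleen minus bone marrow, was -1.44 (SE 0.30, limma adjusted p = 0.0897). In STAT6-KO the Id1 call was lost without control, 2 weeks or 4 weeks (0.92 to 1.14), and those of Id3 (0.71 to 1.17) and Cdkn1a (-1.34 to -0.79) without any 1 time point. With STAT6-KO and WT fitted alone 0 probes of any gene were called in bone marrow. The HDC-KO call of Id1 was lost without any 1 time point (0.91 to 1.00).

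As a description of likeness, the genes whose probes followed each member most closely were sought among 18235 named probes well above background on all 22 arrays, by Pearson r after each tissue's mean was subtracted. Tgfb1 was nearest to Tm9sf4 (0.94), Camta2 (0.93) and Atf6b (0.91). Tgfbi was nearest to Ugt1a6b, Sirpb1a and Sirpb1b (0.89 each), and Smad7 to Synj2 (0.86), Tut4 and Macf1 (0.84 each). For Tgfb2 probe 1 the nearest were Rnft1, Cttnbp2nl (0.78 each) and Nr2c1 (0.77), and for Tgfb3 they were Clcn5 (0.76), Abca17 (0.73) and Psg28 (0.72). Tgfbr1 probe 1 was nearest to Commd7 (0.86), Chmp2b (0.81) and Xiap (0.79), and Tgfbr2 probe 1 to Trp53i13 (0.81), Cbr1 and Pgap1 (0.79 each). The arrays share slides and scaling, and no p is given.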

How the data were processed

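CD11b+ cell RNA was measured on Agilent 4x44K mouse arrays. The deposited tables hold the intensity of each spot (gProcessedSignal), which per the file headers Feature Extraction 11.0.1.1 had background-subtracted, and the submitters' processing notes name GCRMA. Control spots and outlier spots were left out, log2 intensity was taken after scaling each array to its 75th percentile (no further normalization of the deposited intensity), and spots of a probe were averaged. Probes were named through their RefSeq transcript, 27234 of 39429 with a symbol. Probes well above background on at least 2 arrays of a fit were tested with limma 3.58.1 (R 4.3.3) and Benjamini-Hochberg adjustment over all of them. Tissues were compared over 10 pairs with the pair as a block, and genotypes and time points within a tissue on 11 arrays with both terms. The differences of MI effects between tissues were added after the data were seen. No fit imputed an array. Fits were tested on simulated data. The number of arrays limits the precision. The members and lists were chosen with earlier results of these data known. Genes of the lists were named where they had the largest changes past the threshold, up to 3 in each direction. Alternatives were other background corrections, scalings, filters, probe summaries, blocks, subsets of arrays and tests. Figures used Python 3.11.15 with matplotlib 3.10.9.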

Additional observations from a re-analysis of the deposited data

How the results depend on the processing

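Member probes called in spleen at 1 week (2) were 0 with normexp, 1 with quantile normalization, median scaling, no filter on dim probes, 1 probe a gene or the mean over probes, 0 with the 2 time points alone, 0 without the WT spleen 1 week array and 0 to 6 with 1 genotype left out. At 2 weeks (1) they were 0 with normexp, quantile normalization, median scaling, outlier spots kept, no filter, the 2 time points alone or without the WT spleen 1 week array, 2 with probes detected on every array, and 0 with any 1 genotype left out. STAT6-KO against WT in bone marrow (1) gave 0 with normexp, no filter, 1 probe a gene, the mean over probes, the 2 genotypes alone or either form of the methods' t-test, and 0 with any 1 time point left out. HDC-KO against WT in spleen (0) gave 2 with the 2 genotypes alone and 0 to 1 with 1 time point left out. The STAT6-KO effect in spleen minus bone marrow (0) gave 1 with no pair block, and 4 weeks in bone marrow (0) gave 1 with probes detected on every array. The count between tissues (7) was 5 to 8 with 1 pair left out. The WT spleen medians moved at 1 week (-0.58) to -0.67 with quantile normalization, -0.26 with median scaling, -0.71 with scaling to detected probes and -0.48 with 1 probe a gene, at 2 weeks (-0.33) to -0.094 with median scaling and -0.41 with scaling to detected probes, and at 4 weeks (-0.25) to -0.34 with the latter. The WT bone marrow medians moved at 1 week (0.27) to 0.38 with normexp, 0.092 with quantile normalization, 0.13 with median scaling and 0.18 with scaling to detected probes, at 2 weeks (-0.13) to -0.22 with median scaling, and at 4 weeks (-0.08) to 0.11 with normexp, -0.17 with quantile normalization and -0.31 with median scaling. The cause of these shifts was not tested. Of 227 alternative values for the 11 member changes called, 173 stayed past the threshold, 54 did not and 0 changed direction. Normexp was run on the median spot signal. At 1 week in spleen it called 0 probes of any gene. No condition has a second array, and signals near background limit Tgfb2 in bone marrow.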
